A study of Mus musculus with 12 samples.

Results

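The chromatin and DNA methylation regulators were taken here as the protein-coding genes of the RefSeq GRCm38.p6 gene table whose symbols belong to the Dnmt, Tet, Mbd, Kmt, Setd, Setdb, Ehmt, Ezh, Suz12, Prdm, Kdm, Hdac, Sirt, Cbx, Brd, Smarca, Smarcb, Smarcd, Smarce, Chd and Arid families. The rule found 136 genes among 21887 protein-coding genes on the assembled chromosomes. Of these, 17 had a CpG called as differentially methylated inside the gene span or within 5 kb of it. These 17 genes held 25 of the 2798 sites in the authors' deposited table.

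The assay was reduced representation bisulfite sequencing, which reads CpG methylation in restriction fragments from CpG-rich parts of the genome. The 12 libraries came from splenic CD11c dendritic cells of F1 female C57BL/6 mice, all labelled as immunised with OVA. The mothers (F0) of 6 libraries had received corn oil, and those of the other 6 had received the plasticiser DEHP at 37 µg per kg per day. Either treatment lasted 10 days, before the females were crossed with naïve males. The labels name neither the mothers nor the litters, the DNA extraction protocol mentions spleen as well as dendritic cells, and the age of the F1 mice is not stated in the sources used here. The deposited table holds no level per library, so the labelled cell type could not be checked against its markers, no spread between animals can be given, and the depth is unknown. How the libraries and litters entered the deposited q-values is not stated either. Every methylation difference and q-value given for a site below is the authors' own, copied from the authors' deposited table. The table does not name the group that was subtracted, and a positive difference, called a gain below, is taken to mean more methylation after maternal DEHP.

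Chromatin regulators place, remove and read chemical marks on DNA and histones. Dnmt enzymes methylate cytosine and Tet enzymes oxidise the methyl group, while Mbd proteins include readers of methylated CpGs. The Kmt, Setd, Ehmt and Ezh families include enzymes that methylate histones, Kdm enzymes demethylate them, and Hdac and Sirt enzymes deacylate proteins. The Smarc and Chd families include enzymes that move or eject nucleosomes with ATP, and subunits of their complexes. In dendritic cells this machinery is known to take part in lineage choice and in the induction of cytokine genes.

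A pair of called sites lay in a promoter, and the sequence is shown because it is the only promoter window of the RefSeq table that held a called site of these genes. Both sites fall in the span of Mbd6, which lies on the minus strand of chromosome 10 from 127281956 to 127290869. They also lie 142 and 86 bp before the start of Ddit3, a divergent neighbour that encodes the stress-response transcription factor CHOP. The run below covers chr10:127290543-127290792 (GRCm38.p6, plus strand), the 250 bases before that start, from RefSeq, with both called CpGs in capitals.

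Ddit3 promoter: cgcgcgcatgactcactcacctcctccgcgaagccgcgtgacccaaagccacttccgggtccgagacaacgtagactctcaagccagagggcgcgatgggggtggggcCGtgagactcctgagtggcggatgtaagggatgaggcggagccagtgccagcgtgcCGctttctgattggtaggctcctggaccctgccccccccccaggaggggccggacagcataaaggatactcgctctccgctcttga

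These 250 bases hold 20 CpGs, of which 2 were called, and 64.8% of them are G or C. They hold 2 copies of CCGG, the site of MspI, an enzyme commonly used for this assay. CCGG reads the same on both strands and contains a CpG itself. The labels do not name the enzyme used. The called CpG at 127290651 lies 54 bp after the first base of one copy, and that at 127290707 lies 49 bp before the first base of the other. Of all protein-coding genes with a promoter window of 300 bp in the RefSeq table, 61.4% have a CCGG in it.

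At Mbd6, which encodes an Mbd-family protein known as a partner of a Polycomb deubiquitinase complex, both CpGs were gains in the authors' deposited table. The site at 127290651 gained 33.1 percentage points and that at 127290707 gained 32.9 points, each with a deposited q-value of 0. The 2 values differ by less than 1 point over 56 bp. The start of Mbd6 in the RefSeq promoter table lies further inside the gene, 1633 bp from the nearer site. Whether these CpGs belong to a transcript of Mbd6, to the promoter of Ddit3 or to both cannot be told from a gene span. The other 7 Mbd genes (Mbd1, Mbd2, Mbd3, Mbd3l1, Mbd3l2, Mbd4 and Mbd5) had no called site.

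The share of regulator genes with a called site was 12.5% (17 of 136), beside 6.52% of all protein-coding genes. Over all protein-coding genes this share rose with span length, and the regulators were longer, with a median span of 42.8 kb against 17.2 kb for all protein-coding genes. Within spans of 20 to 100 kb, 7.59% of the regulators (6 of 79) had a called site, beside 7.11% of all protein-coding genes of that length. Over 100 kb, 20% of the regulators (5 of 25) had one, beside 16.5%. Under 20 kb, 18.8% of the regulators (6 of 32) had one, beside 4.09%. The share was therefore near that of other genes of the same length in the middle class, which holds most regulators, and the gap was widest among short genes. Among the 6 short genes were Arid5a, Mbd6, Prdm14, Sirt4 and Smarcd1. Per megabase of window, the regulators held 2.33 called sites (1.91 without the Prdm genes) and all protein-coding genes 1.39. By span length, the regulators held 1.71 against 1.76 sites per megabase at 20 to 100 kb, 1.67 against 0.861 over 100 kb and 11.8 against 2.81 under 20 kb. The value under 20 kb rests on 8 sites in 0.677 Mb, among them close pairs at Mbd6 and Smarcd1. That over 100 kb rests on 9 sites, of which Prdm16 alone held 5.

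**Figure D1:**
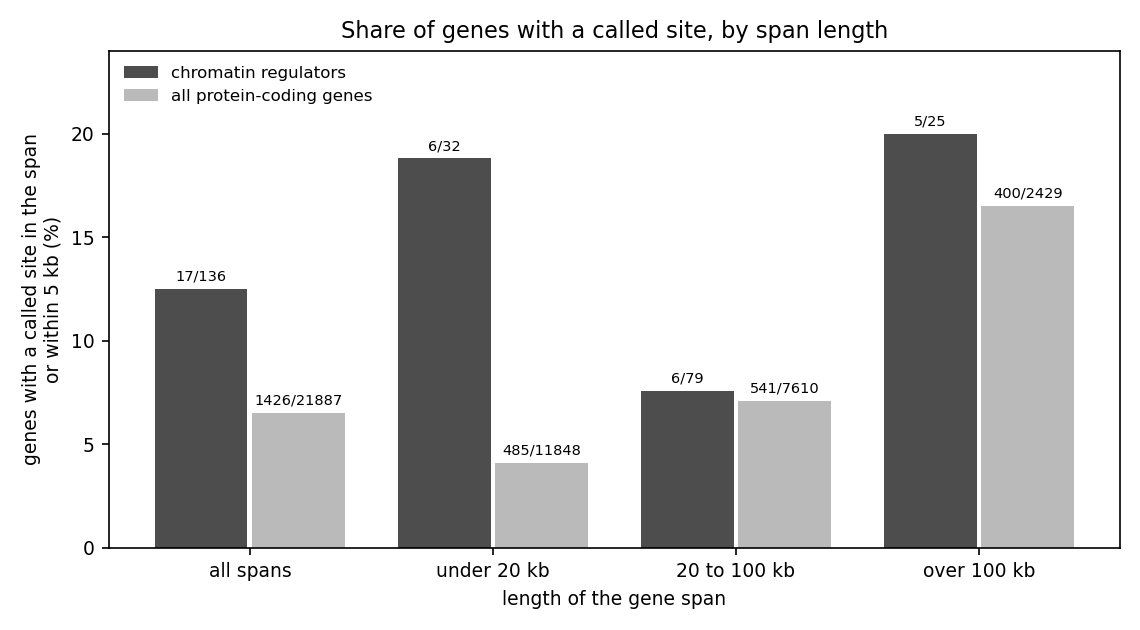
Percent of genes with a called site in the span or within 5 kb (y axis) for the chromatin regulators (dark bars) and all protein-coding genes (light bars), over all spans and in 3 classes of span length (x axis), with the number of genes above each bar. The dark and light bars are close at 20 to 100 kb (7.59% and 7.11%) and far apart under 20 kb (18.8% and 4.09%).

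Of the 25 sites, 15 were gains and 10 were losses in the authors' deposited table, and 48.4% of all called sites were gains. By gene, 11 of the 136 regulators had gains alone, 4 had losses alone and 2 had both. Of all 21887 protein-coding genes, 601 (2.75%) had gains alone, 663 (3.03%) had losses alone and 162 (0.74%) had both. The gains had a median of 31.6 points and the losses of -31.3 points, beside 28.8 and -28.7 points over all called sites. Of the 25 sites, 14 (56%) differed by at least 30 points, beside 39.4% of all called sites. None reached 40 points, as 5.43% of all called sites did. Counted within 20 kb of the spans, the regulators had 18 gains and 19 losses, so the larger number of gains by site did not hold there. The added losses include runs of neighbouring CpGs below Prdm14 and Setd6. By gene, 11 regulators had gains alone and 6 had losses alone within 20 kb, and 9 and 4 did within the span alone. The deposited q-value was 0 at 21 of the 25 sites and at 74.1% of all called sites, and at the other 4 regulator sites, those of Prdm8, Sirt4 and Smarcd1 among them, it was at most 3.69e-08.

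**Figure D2:**
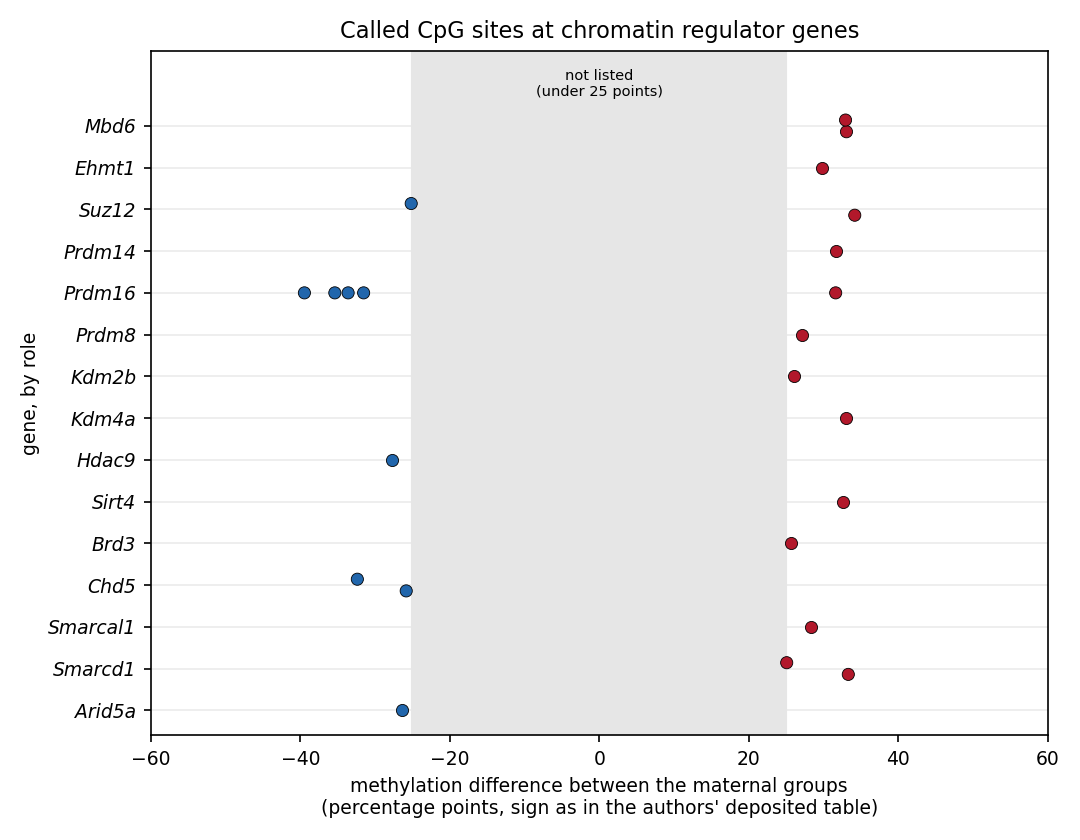
Methylation difference in percentage points (x axis, sign as in the authors' deposited table) at each called site of the 15 genes described here (y axis, ordered by role), with gains in red and losses in blue. The grey band covers differences under 25 points, which the table does not list, and the farthest point from it is a loss of -39.4 points at Prdm16.

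The enzymes that write and erase DNA methylation themselves had no called site. None of the 4 Dnmt genes and none of the 3 Tet genes had one within 5 kb, beside 6.52% of all protein-coding genes. The nearest called site lay 183 kb from Dnmt1, the maintenance methyltransferase gene, and 793 kb from Dnmt3a and 93.2 kb from Dnmt3b, which encode the de novo enzymes. It lay 21.7 kb from Dnmt3l, whose product is a catalytically inactive cofactor, and 282, 252 and 776 kb from Tet1, Tet2 and Tet3. With 7 genes at a background near 6.52%, a count of 0 is no contrast with other genes. The table lists only differences of 25 points or more, so a smaller change, or CpGs that were not covered, would leave the same blank.

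Among the histone methyltransferases and the Polycomb repressive complex that trimethylates histone H3, 2 of 23 genes had called sites (8.7%). The share over all protein-coding genes was 6.52%. Suz12, a core subunit of that complex, lies on chromosome 11 from 79993106 to 80034123. Its site at 80018747 gained 34.2 points and its site at 80018877, 130 bp away, lost -25.2 points in the authors' deposited table. Both lie in the gene body, 25.6 and 25.8 kb from its 5′ end. Opposite directions were the usual outcome at this spacing: 118 of the 134 adjacent pairs in the whole table that lay 110 to 180 bp apart were opposite. Of the 336 pairs within 100 bp, 42 were, and of the 514 within 1 kb, 187 were. The pair in Suz12 is therefore not particular to this gene. The band of 110 to 180 bp was not set in advance. Ehmt1, which encodes a histone H3 methyltransferase that works as a dimer with the Ehmt2 product, lies on chromosome 2 from 24790769 to 24919643. It gained 29.7 points at 24840613, 61.3% of the way along its span. Ehmt2, Ezh1 and Ezh2 had no called site, and neither had the 8 Kmt, 8 Setd and 2 Setdb genes.

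Of the 14 Prdm genes, which encode zinc finger proteins with a domain related to methyltransferases, 3 had called sites (21.4%). The share over all protein-coding genes was 6.52%, and 14 genes are too few for a contrast with it. Prdm16, a factor of brown fat and of blood stem cells, held 5 sites, the most of any regulator. Its span on chromosome 4 runs from 154316122 to 154637360. From the 5′ end of this minus-strand gene, the authors' deposited table gave -33.6 points at 154541000, 31.6 at 154529016, -31.5 at 154500128, -35.4 at 154470842 and -39.4 at 154458993. So 4 of the 5 were losses, and the only gain lay between losses on either side. The sites were 11.8 to 29.3 kb apart, so they do not come from the same short fragment, and they all lay between 30% and 55.5% of the span. Only 6.29% of all called sites had a larger difference than the site at 154458993. Among all protein-coding genes, 20 had at least 5 called sites, and 7 of these 20 were longer than 300 kb, as Prdm16 is (321 kb). In all, 557 protein-coding genes were longer than 300 kb, and 25.5% of them had a called site.

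Both other Prdm genes with a called site had a single gain. Prdm14, which encodes a factor of germ cells and pluripotency, lies on chromosome 1 from 13113428 to 13127163. It gained 31.6 points at 13126844, close to the upper end of its span. Prdm8, which encodes a repressor of the developing nervous system, lies on chromosome 5 from 98167203 to 98187454. It gained 27.1 points at 98183404 (deposited q-value 3.69e-08), a position it shares with the noncoding gene A730035I17Rik. Prdm1, which encodes Blimp-1, a regulator of plasma cells and dendritic cells, had its nearest called site 813 kb away.

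Of 18 histone demethylase genes, 2 had a called site (11.1%, beside 6.52% of all protein-coding genes), each a single gain. Kdm4a encodes a Jumonji demethylase of histone H3 and lies on chromosome 4 from 118136957 to 118180090. It gained 33.1 points at 118146005. Kdm2b, whose product binds unmethylated CpG islands and brings a variant Polycomb complex to them, lies on chromosome 5 from 122870664 to 122989270. It gained 26.0 points at 122882416, which is 90.1% of the way along its span. A further site at 122865016, just beyond the 5 kb limit at 5648 bp below the span, lost -31.2 points and lies inside the ubiquitin ligase gene Rnf34. Kdm5d lies on the Y chromosome and cannot be read in female mice. Kdm5c, Kdm6a, Hdac6, Hdac8 and Smarca1, all on the X chromosome, had no called site, where 9.11% of protein-coding genes had one.

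The deacetylase and sirtuin families had 2 genes with a called site among 18 (11.1%, beside 6.52% of all protein-coding genes). Hdac9, a class II deacetylase gene and the longest regulator with a span of 870 kb, lies on chromosome 12 from 34047580 to 34917095. Its only called site, at 34907165, lost -27.7 points and lay 9.93 kb from the start. Per megabase of window Hdac9 held 1.14 called sites and Prdm16 held 15.1. Over 100 kb, all regulators held 1.67 and all protein-coding genes 0.861. Sirt4, which encodes a mitochondrial sirtuin, lies on chromosome 5 from 115478006 to 115490264. It gained 32.7 points at 115483189 (deposited q-value 2.09e-12), 1108 bp after the start in the RefSeq promoter table. This was the closest of the sites to a listed start of its own gene, with 22 of the 25 sites in genes that have one.

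Among the readers of histone marks, the chromobox and bromodomain families, 3 of 17 genes had a called site, beside 6.52% of all protein-coding genes. Brd3, which encodes a bromodomain protein of the BET family that binds acetylated histones, lies on chromosome 2 from 27445576 to 27507657. It gained 25.6 points at 27470292, 60.2% of the way along its span. The genes of these families without a called site include Cbx1, Cbx2, Cbx3, Cbx5, Brd1 and Brd2, and also Brd3os and Brd8dc, which the rule takes by their symbols.

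In the Smarc, Chd and Arid families, 4 of 31 genes had called sites, beside 6.52% of all protein-coding genes. Chd5, which encodes a remodeller known mainly from neural tissue, lies on chromosome 4 from 152338646 to 152390194. It lost -25.8 points at 152375020 and -32.4 points at 152383150, 8.13 kb further along. Arid5a, whose product binds the messenger RNA of interleukin-6 and other inflammatory genes, lies on chromosome 1 from 36307733 to 36324037 and lost -26.4 points at 36319504. Chd5, Arid5a and Hdac9 are among the 4 regulators with losses alone.

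Smarcal1 and Smarcd1 counted only through sites outside their spans, each inside another protein-coding gene. Smarcal1 encodes a helicase of stalled replication forks and lies on chromosome 1 from 72536695 to 72636790. Its site at 72536316 gained 28.4 points and lay 379 bp before the 5′ end of this plus-strand gene. The same site is inside Marchf4, a ubiquitin ligase gene, 843 bp after its listed start. Smarcd1 encodes a subunit of the SWI/SNF complexes and lies on chromosome 15 from 99702287 to 99713995. Its sites at 99699042 and 99699066, 3.2 kb before its start and inside the ion channel gene Asic1, gained 33.3 and 25.1 points. Smarcd1 was the member nearest the 5 kb limit from within.

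**Figure D3:**
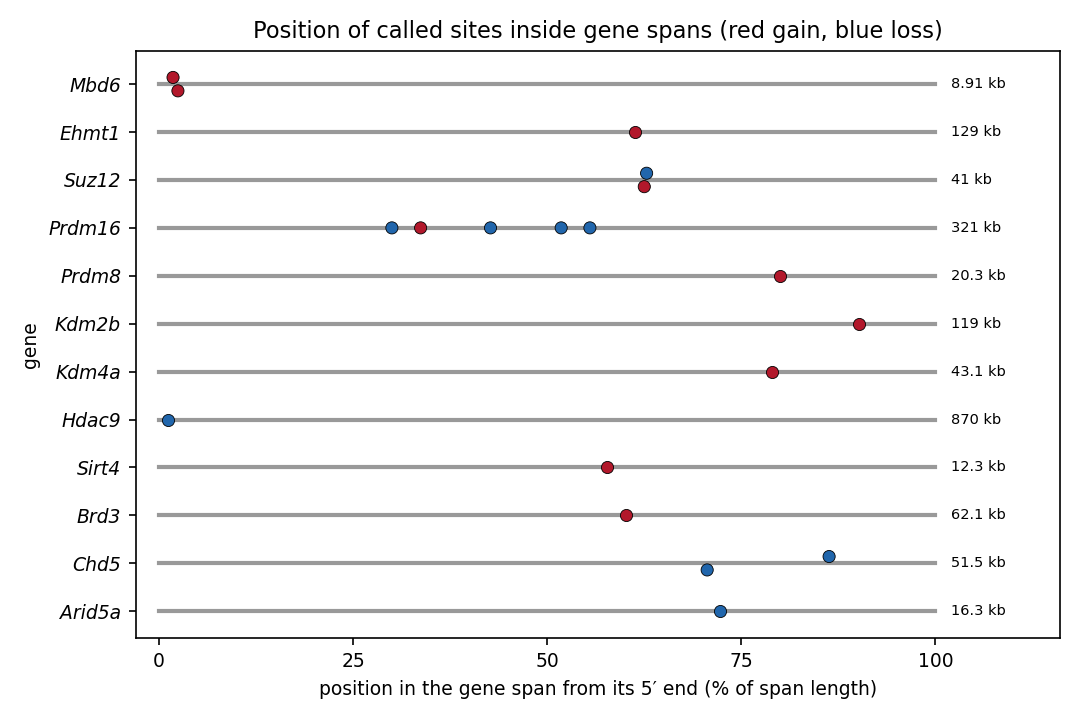
Position of each called site as percent of the gene span from its 5′ end (x axis) for the 12 genes whose strand is in the RefSeq promoter table and whose sites lie inside the span (y axis, span length at the right), with gains in red and losses in blue. Mbd6 and Hdac9 have sites in the first 10% of the span, and the sites of Prdm16 spread from 30% to 55.5%.

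Of the 25 sites, 22 (88%) lay inside the span of the regulator, beside 86.5% of the sites assigned to all protein-coding genes. Spans made up 87.5% of the regulators' windows, so this share is near what the windows give. Of the 19 sites inside a span with a known strand, 3 lay in its first 10%, namely those of Mbd6 and Hdac9. Of the 22 sites in genes with a listed start, none fell within 1 kb of a listed start of its own gene. A listed start can lie far from the 5′ end of the span. The Mbd6 sites lay 0.162 and 0.218 kb inside that end, and the Smarcal1 site 0.379 kb before it. Prdm14 has no listed start, so its site, close to the upper end of its span, could not be counted. No regulator had a called site in its own promoter window (0 of 105 genes), and this is near the background of 0.234% of all protein-coding genes with such a window. The table gives spans without exons, so which sites are exonic, intronic or in an untranslated region was not determined.

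Promoter windows of the regulators were richer in CpGs than those of other genes. The median was 23 CpGs per 300 bp, with the middle of the distribution between 16 and 33, beside a median of 13 over all protein-coding genes with a window. A CCGG lay in 83.8% of the regulators' windows (88 of 105) and in 61.4% of all. Genes with CpG-rich windows had called sites more often in the whole table, at 8.3% for 20 CpGs or more, 6.97% for 10 to 19 and 4.51% for under 10. This order did not hold among genes over 100 kb, where the shares were 15.3%, 15.3% and 17.7%. Among the regulators the shares were 13.6% (9 of 66), 16% (4 of 25) and 7.14% (1 of 14). For spans under 20 kb with 20 CpGs or more, 17.6% of the regulators (3 of 17) had a called site. The share of all protein-coding genes of that kind was 6.59%, above the 4.09% of all short genes. These classes were chosen after the values were seen, and how far CpG density accounts for the regulators' share was not tested.

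**Figure D4:**
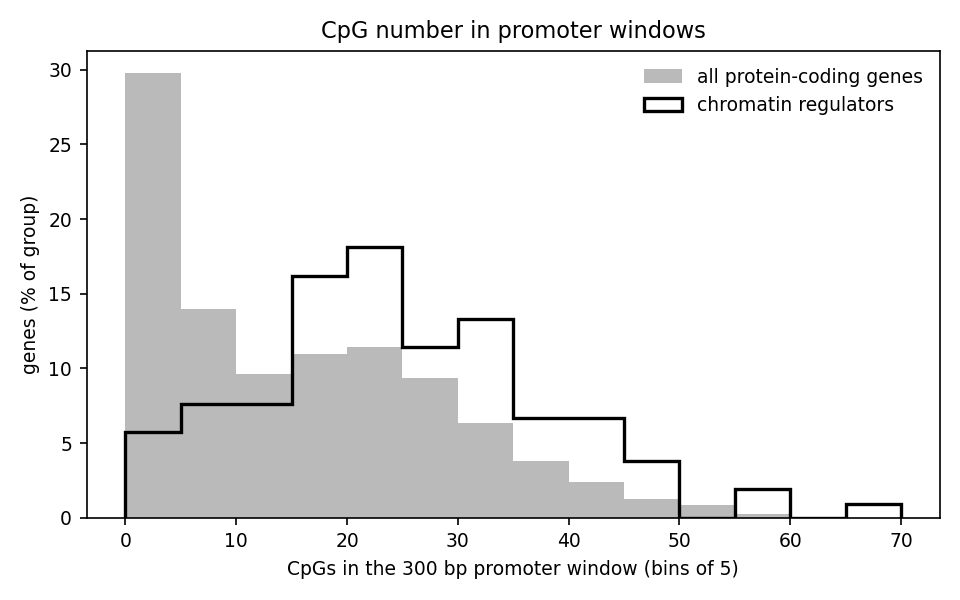
Number of CpGs in the 300 bp promoter window (x axis, bins of 5) against the percent of genes (y axis) for all 17492 protein-coding genes with a window (grey) and the 105 chromatin regulators with one (black outline). The outline lies to the right of the grey bars, with medians of 23 and 13 CpGs.

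Of the 119 regulators without a called site, 5 had one between 5 and 20 kb away, and 114 had none within 20 kb. Within 20 kb the share with a site was 16.2% of the regulators and 10.7% of all protein-coding genes, beside 12.5% and 6.52% within 5 kb. For genes without a called site, the median distance to the nearest was 264 kb for the regulators and 294 kb for all protein-coding genes. Over all 135 regulators on chromosomes with called sites, those with a site included, the median distance to the nearest was 204 kb, beside 260 kb for all protein-coding genes. The farthest was Prdm6, at 3207 kb.

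**Figure D5:**
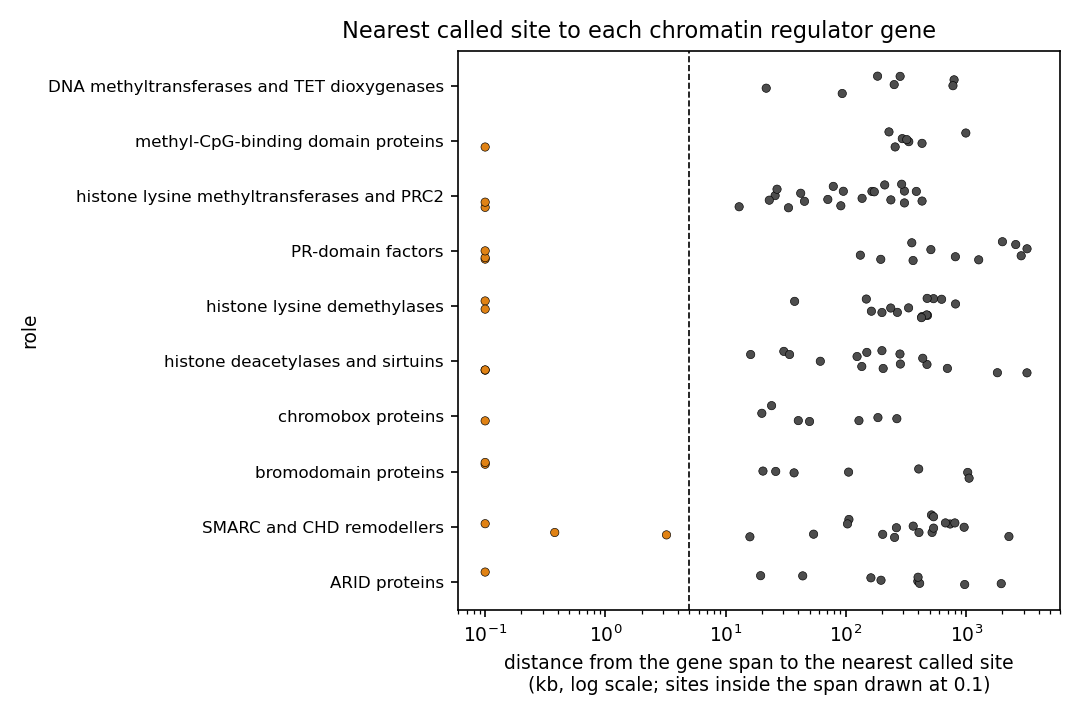
Distance in kb from each gene span to the nearest called site (x axis, log scale, sites inside the span drawn at 0.1 kb) for 135 regulators by role (y axis), without Kdm5d. Orange points left of the dashed line at 5 kb are the 17 genes with a called site, and no point of the Dnmt and Tet row lies there.

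The rest of the chromatin machinery was read from 8 lists of 127 further genes, all found in the gene table. Of these, 4 had a called site (3.15%), beside 6.52% of all protein-coding genes. Gains alone were found at 2, a loss alone at 1 and both at 1. The count is small and was not matched for span length, so no contrast with other genes is drawn. Paxip1, a subunit gene of histone methyltransferase complexes, lost -31.3 points at 27789782 on chromosome 5. The remodeller genes Bcl7a and Baz1b counted through gains of 31.6 and 27.9 points at 4.67 and 4.2 kb outside their spans, the second inside the Wnt receptor gene Fzd9. None of the listed histone acetyltransferases (12), histone methyltransferases (22), Jumonji proteins (8), Polycomb proteins and partners (27) or DNA methylation factors such as Uhrf1 (13) had one.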

How the data were processed

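The members and the gene lists were chosen with earlier results of these data known. Per the file headers, a deposited row holds a position with its difference in methylation (in percentage points), its p-value and its q-value. Each row was read as 1 CpG at its start position. The bases were checked only at the called positions in the Ddit3 promoter. The submitters' processing notes name methylKit and GRCm38 (mm10). Aligner, test, coverage filter and the treatment of replicates are not stated in those sources. The hypermethylated and hypomethylated tables add up to the whole table, and the smallest difference is 25.0 points. In this work, called sites were assigned to a gene in its span or within 5 kb, using the RefSeq GRCm38.p6 gene table, so a site can count for several genes. Strand and starts came from the RefSeq promoter table (250 bases before to 50 after a start), which holds 105 of the 136 regulators. No test was run, since no value per library was read, and the counts are descriptions. The rule named every regulator with a called site, and some genes that it takes are not reported here. Assignment was checked on simulated sites. Python 3.11.15 with pandas 2.3.3 was used.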

Additional observations from a re-analysis of the deposited data

How the results depend on the processing

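No replicate could be left out and no coverage minimum could be changed, because the table holds no value per library. No paired analysis was possible because of the same lack. A limit of 30 points left 9 regulators with a called site and 14 sites (8 gains, 6 losses), with 6 genes with gains alone and 2 with losses alone, and 3.02% of protein-coding genes. A limit of 40 points left 0 regulators, 0 sites in either direction and 0 of the further chromatin genes, beside 0.425% of protein-coding genes; fewer sites enter at either limit. Within the span alone, 15 regulators (without Smarcal1 and Smarcd1), 2 further chromatin genes and 4.96% of protein-coding genes had a site. Within 20 kb, 22 regulators, 10 further chromatin genes and 10.7% of protein-coding genes did, and the regulators had 18 gains and 19 losses (15 and 10 within 5 kb). Counting each site for its nearest gene gave 15 regulators and 5.57%. Without adjacent opposite pairs within 1 kb, Suz12 dropped out, leaving 16 regulators and 6.15%. Without the Prdm genes, 14 regulators and 6 losses were left. Merging sites within 1 or 10 kb, autosomes alone and a q-value under 0.001, which removed no site, each kept the same 17 regulators. The counts for the further chromatin genes under these settings were added after seeing the data.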

Other observations

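Called sites between 5 and 20 kb from the spans were losses at Kdm2b, Prdm14, Setd6 and Sirt7 and gains at Arid1a and Cbx5. Those at Smarca5 went both ways. Below Prdm14, 3 CpGs within 40 bp, 8.46 to 8.5 kb from the span, lost -42.8, -26.9 and -34.9 points in the authors' deposited table, while the site inside the gene gained 31.6 points. Some 12.9 kb below Setd6, which encodes a lysine methyltransferase, 3 CpGs in the span of Ndrg4 lost -32.4, -28.1 and -35.8 points. They lie 365 to 391 bp before the listed start of Ndrg4. Above Smarca5, which encodes an ISWI remodeller, 2 CpGs 150 bp apart went opposite ways (25.4 and -29.1 points), as did 118 of all 134 adjacent pairs at 110 to 180 bp. Sirt7 had a loss of -30.7 points at 16.1 kb, inside Pycr1. Arid1a and Cbx5 had gains of 25.9 and 28.7 points, 19531 and 19988 bp outside their spans.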
